A study of Gallus gallus with 24 samples.

Results

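Genes that drive the cell cycle and copy DNA were described in abdominal fat of chickens of a fat line (FL) and of a lean line (LL). Members were the features of the deposited count table whose gene name begins as those of the minichromosome maintenance, CDC, cyclin-dependent kinase (CDK), cyclin A, B, D, E and G, centromere (CENP), Aurora, origin recognition (ORC), E2F, polo-like kinase, replication factor C, GINS or topoisomerase 2A genes, without CDC42, a GTPase of cell shape. Names that begin with BUB were sought as well, and none was found. This gave 66 of 17934 features, and 59 of them passed the filter on low counts and were tested among 11187 genes. Abdominal fat of 7-wk-old cockerels was taken from 4 FL birds and 4 LL birds, of 2 lines bred apart from each other for high or low abdominal fat. The lines differ by selection across the genome and not at 1 known gene, no bird was treated, and each library held the RNA of a single bird. Each bird was sequenced in 3 runs, which were summed, so that the spread given is that of birds and not of runs. It includes counting error, which is larger for members with few counts.

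A dividing cell loads the MCM helicase onto origins marked by the ORC proteins, activates it with CDC45 and GINS, copies its DNA, and then separates the copies on kinetochores built from CENP proteins. Cyclins switch the CDKs on in turn, CDK inhibitors hold them back, and E2F factors switch on many of these genes as a cell enters S phase. In fat tissue, mature adipocytes do not divide, and proliferating cells are found among precursor, vessel and immune cells. Roles named here are those known from yeast and mammals. Several names in the family hold genes with no part in division, such as the kinases of transcription CDK9 and CDK12, and these were kept as separate groups. Of the core MCM helicase only MCM3 was found by name, and CDC6, CDC20, CDK2, CDK4, CDK6, PLK1 and AURKB were not. The groups thus hold only part of the machinery. Other genes of the cycle, whose names do not begin in these ways, were read as a separate list.

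Total counts were 4299772 to 12876999 per bird, and the members together took 0.138% of all counts. Values are given as CPM, the counts scaled to 1000000 per bird, after TMM normalization, which are not divided by gene length, so levels were not compared between genes. Adipocyte markers were present in every bird, for example PLIN1 of the lipid droplet, listed as 2 features, at 1931 to 2946 CPM in FL and 1491 to 2467 CPM in LL in the larger one. FL replicate 4 stood apart, with a sum of 15766 CPM over 4 skeletal muscle markers, against 84.4 to 91.8 CPM in the other FL birds and 73.5 to 119 CPM in the LL. The group medians that moved most without this bird are given with and without it.

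The signal of dividing cells varied more between birds of a line than between the line means. Over the 16 members of mitosis and the centromere, summed CPM was 91.3, 82.6, 63.6 and 52.2 in FL replicates 1 to 4, against 85.3, 60.2, 60.5 and 124 in LL replicates 1 to 4. LL replicate 4 was 1.81 times the mean of the other LL birds, and FL replicate 1 was 1.75 times FL replicate 4. TOP2A (topoisomerase 2A) weighed most in these sums. It was at 58.6 CPM in LL replicate 4, against 22.8 to 36.3 CPM in the other LL birds, and at 39.0 and 21.8 CPM in FL replicates 1 and 4. The line means were 72.4 ± 17.8 CPM in FL and 82.6 ± 30.2 CPM in LL (SD, n = 4 each), a gap smaller than either SD. Over the 10 members of replication, the sums were 107, 93.1, 78.3 and 71.3 CPM in FL replicates 1 to 4, against 83.3, 67.1, 75.2 and 109 CPM in LL replicates 1 to 4. FL replicate 1 and LL replicate 4 were again the high birds, and the means of 87.4 ± 16.0 CPM in FL and 83.7 ± 18.2 CPM in LL overlapped (SD, n = 4 each). In whole tissue, fewer dividing cells and less of these RNAs per cell cannot be told apart.

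**Figure D1:**
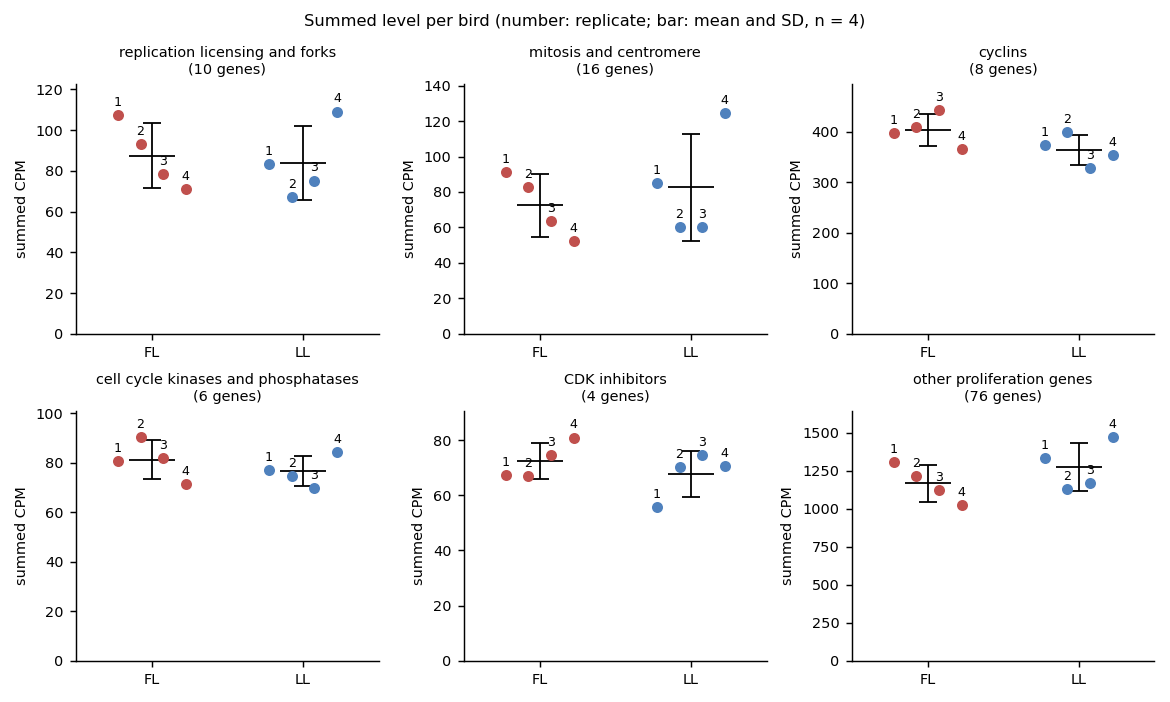
Summed CPM per bird (vertical axis, from 0) for 5 groups of members and for 76 other features of proliferation genes, FL left and LL right; each numbered point is a bird, and bars show mean and SD of 4 birds. LL replicate 4 is the highest bird for mitosis (124 CPM), replication (109 CPM) and the other proliferation genes (1468 CPM), while the line means lie within the spread of the birds.

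Of the replication members, MCM3, a subunit of the replicative helicase, lies at chr3:110345498-110355355 of genome build 2.1 (positions as deposited). MCM3 was at 31.8, 20.8, 18.2 and 16.5 CPM in FL replicates 1 to 4, against 17.8, 17.0, 19.2 and 35.6 CPM in LL replicates 1 to 4. A single bird of each line was high and the rest lay together, and the log2 fold change FL over LL was -0.04 ± 0.28 (SE). CDC45, which activates the helicase, had 4.47, 5.49, 1.63 and 1.62 CPM in FL birds, against 3.99, 2.13, 3.24 and 6.90 CPM in LL birds. It covered a 4.26-fold range within the 8 birds, at 12 to 50 counts. MCM10, needed to start forks, had 5.23, 3.89, 2.44 and 3.55 CPM in FL, against 5.13, 3.37, 3.24 and 7.18 CPM in LL, with LL replicate 4 highest once more.

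ORC4, a subunit of the origin recognition complex, was the member of this group with the clearest difference by line. It had 16.6, 19.0, 15.2 and 12.3 CPM in FL replicates 1 to 4, against 12.1, 11.2, 13.6 and 10.4 CPM in LL replicates 1 to 4. FL replicate 4 lay within the LL range and the other FL birds above it. The log2 fold change was 0.40 ± 0.17 (SE), with an unadjusted p of 0.037 and an adjusted p of 0.334 (edgeR quasi-likelihood test). ORC6, another subunit, was at 9.16, 7.78, 8.00 and 5.68 CPM in FL, against 7.83, 4.96, 7.59 and 7.73 CPM in LL. Only LL replicate 2 stood away from its line, on the low side. RFC2, of the clamp loader, had 18.4, 13.3, 17.6 and 15.5 CPM in FL, against 17.9, 15.1, 13.6 and 20.7 CPM in LL, and GINS3, of the helicase complex, ranged from 10.5 to 15.5 CPM in FL and from 8.68 to 13.7 CPM in LL. MCM9, a helicase of DNA repair, ranged from 2.98 to 6.40 CPM in FL and from 2.69 to 4.42 CPM in LL, and its feature overlaps ASF1A, so reads of the pair may be mixed.

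The 8 cyclin members summed to 404 ± 31.7 CPM in FL and 364 ± 30.2 CPM in LL (SD, n = 4 each), and their single values ran in both directions. CCNG1 weighed most in these sums, with means of 221 CPM in FL and 181 CPM in LL, a gap about as large as that of the sums. CCNG1, a cyclin induced by p53, had 217, 206, 265 and 197 CPM in FL replicates 1 to 4, against 180, 227, 157 and 159 CPM in LL replicates 1 to 4. LL replicate 2 lay inside the FL range and the other LL birds below it, with a log2 fold change of 0.30 ± 0.14 (SE) and an adjusted p of 0.415 (edgeR). CCND1, the D cyclin that answers growth signals, had 32.2, 41.6, 36.6 and 33.1 CPM in FL, against 37.9, 40.7, 45.8 and 39.6 CPM in LL, with a log2 fold change of -0.20 ± 0.12 (SE). CCND2 had a log2 fold change of 0.14 ± 0.11 and CCNG2, linked to exit from the cycle, one of -0.10 ± 0.13 (SE). These cyclins and CCNE1, of entry into S phase, differed at most 1.69-fold between any 2 of the 8 birds.

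The cyclins of S phase and mitosis varied more. CCNA2 was at 20.7, 17.4, 13.7 and 13.0 CPM in FL, against 13.8, 12.4, 8.93 and 16.0 CPM in LL, a log2 fold change of 0.35 ± 0.22 (SE) with an adjusted p of 0.535 (edgeR). The CCNA2 feature overlaps BBS7, a gene of the cilium. CCNB2 had 14.5, 13.7, 11.8 and 14.3 CPM in FL, against 13.7, 12.05, 10.99 and 20.9 CPM in LL. Over all runs, LL replicate 4 was the high bird for CCNB2, whereas for CCNA2 it was FL replicate 1.

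Among the kinases and phosphatases of the cycle, CDK1, the kinase of mitotic entry, lies at chr6:9821286-9829691. CDK1 had 17.7, 15.1, 13.3 and 7.81 CPM in FL replicates 1 to 4, against 16.1, 8.50, 9.17 and 15.3 CPM in LL replicates 1 to 4. Each line held high and low birds, and the log2 fold change was 0.13 ± 0.29 (SE). CDK7, which activates other CDKs and acts in transcription, had 10.7, 12.3, 12.2 and 10.2 CPM in FL, against 8.97, 8.50, 7.35 and 10.9 CPM in LL. LL replicate 4 alone kept the lines from being apart for CDK7, with a log2 fold change of 0.35 ± 0.17 (SE) and an adjusted p of 0.416 (edgeR). CDC23 and CDC34 were counted in this group, although neither is a kinase or a phosphatase. CDC23, of the anaphase-promoting complex, was even, at 37.0 to 47.3 CPM in FL and 38.7 to 44.2 CPM in LL. CDC25A, the phosphatase that releases CDKs, ranged from 5.78 to 7.78 CPM in FL and from 6.24 to 8.15 CPM in LL, and CDC34, a ubiquitin-conjugating enzyme, from 6.87 to 10.2 CPM in FL and from 5.94 to 8.30 CPM in LL.

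The 4 CDK inhibitors summed to 72.4 ± 6.64 CPM in FL and 67.8 ± 8.31 CPM in LL (SD, n = 4 each). CDKN1B (p27), which holds cells in G1, had 40.9, 37.3, 45.4 and 36.7 CPM in FL replicates 1 to 4, against 30.8, 36.0, 35.1 and 36.9 CPM in LL replicates 1 to 4. Only the lowest FL and the highest LL bird overlapped, and the log2 fold change was 0.21 ± 0.11 (SE) with an adjusted p of 0.46 (edgeR). CDKN2C (p18) had 22.1, 25.4, 25.5 and 37.8 CPM in FL, against 19.2, 29.8, 34.3 and 27.2 CPM in LL, so FL replicate 4, low for mitosis, was here the highest bird. CDKN3, a phosphatase that acts on CDKs, had 2.18, 1.83, 1.36 and 2.43 CPM in FL, against 3.42, 2.66, 1.66 and 3.59 CPM in LL, a log2 fold change of -0.49 ± 0.32 (SE). The feature listed as CDKN1A lies 70694 bases from CDKN1B on chromosome 1, whereas RefSeq places that gene on another chromosome, so its identity is uncertain. It had 2.07 to 3.95 CPM in FL and 1.95 to 3.48 CPM in LL.

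The members of mitosis and the centromere showed the spread between birds most plainly. TOP2A, which untangles sister DNA and is a common marker of dividing cells, lies at chr27:4074774-4092207. It had 39.0, 36.6, 23.3 and 21.8 CPM in FL replicates 1 to 4, against 36.3, 25.9, 22.8 and 58.6 CPM in LL replicates 1 to 4. Each line held 2 birds under 26 CPM and 2 above 36 CPM, and the log2 fold change was -0.25 ± 0.30 (SE). CDK12, a kinase of transcription elongation whose feature ends 10329 bases away, covered a 1.23-fold range over the same 8 birds, against 2.69-fold for TOP2A. CENPE, a kinetochore motor, had 4.58, 4.12, 3.39 and 1.32 CPM in FL, against 4.56, 3.37, 2.77 and 6.49 CPM in LL. AURKA, the Aurora kinase of the spindle poles, had 4.91, 4.57, 3.53 and 2.33 CPM in FL, against 4.70, 2.66, 2.21 and 5.25 CPM in LL. CENPI, a kinetochore protein, had 5.89, 4.34, 3.26 and 2.13 CPM in FL, against 4.84, 3.72, 2.37 and 8.42 CPM in LL.

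Of the 14 tested members of this group, LL replicate 4 was the highest of the 8 birds in 10, while FL replicate 4 was the lowest in 5, LL replicate 2 in 4 and LL replicate 3 in 3. Among the 7 tested members grouped under other roles, FL replicate 4 was the lowest in 4 and LL replicate 4 the highest in 1. The same counts were not made over all genes tested. PLK4, which duplicates centrioles, had 6.87, 5.03, 6.24 and 4.46 CPM in FL, against 7.40, 4.96, 4.43 and 8.15 CPM in LL. The other CENP members CENPH, CENPJ, CENPK, CENPN, CENPO, CENPP, CENPQ, CENPT and CENPU had line means between 1.23 and 4.57 CPM in FL and between 1.36 and 4.40 CPM in LL. Their log2 fold changes ran from -0.37 for CENPK to 0.14 for CENPT. The CENPP feature spans several genes of the matrix, and those of CENPO and CENPU overlap neighbours, so their counts are less sure. The median log2 fold change of the 14 was -0.19, with 11 below 0 and 3 above, beside a median of 0.00 over all genes tested. With each bird left out in turn, this median ran from -0.37 without LL replicate 2 to 0.06 without LL replicate 4. It was -0.30 without FL replicate 1, -0.29 without LL replicate 3 and -0.03 without FL replicate 4.

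**Figure D2:**
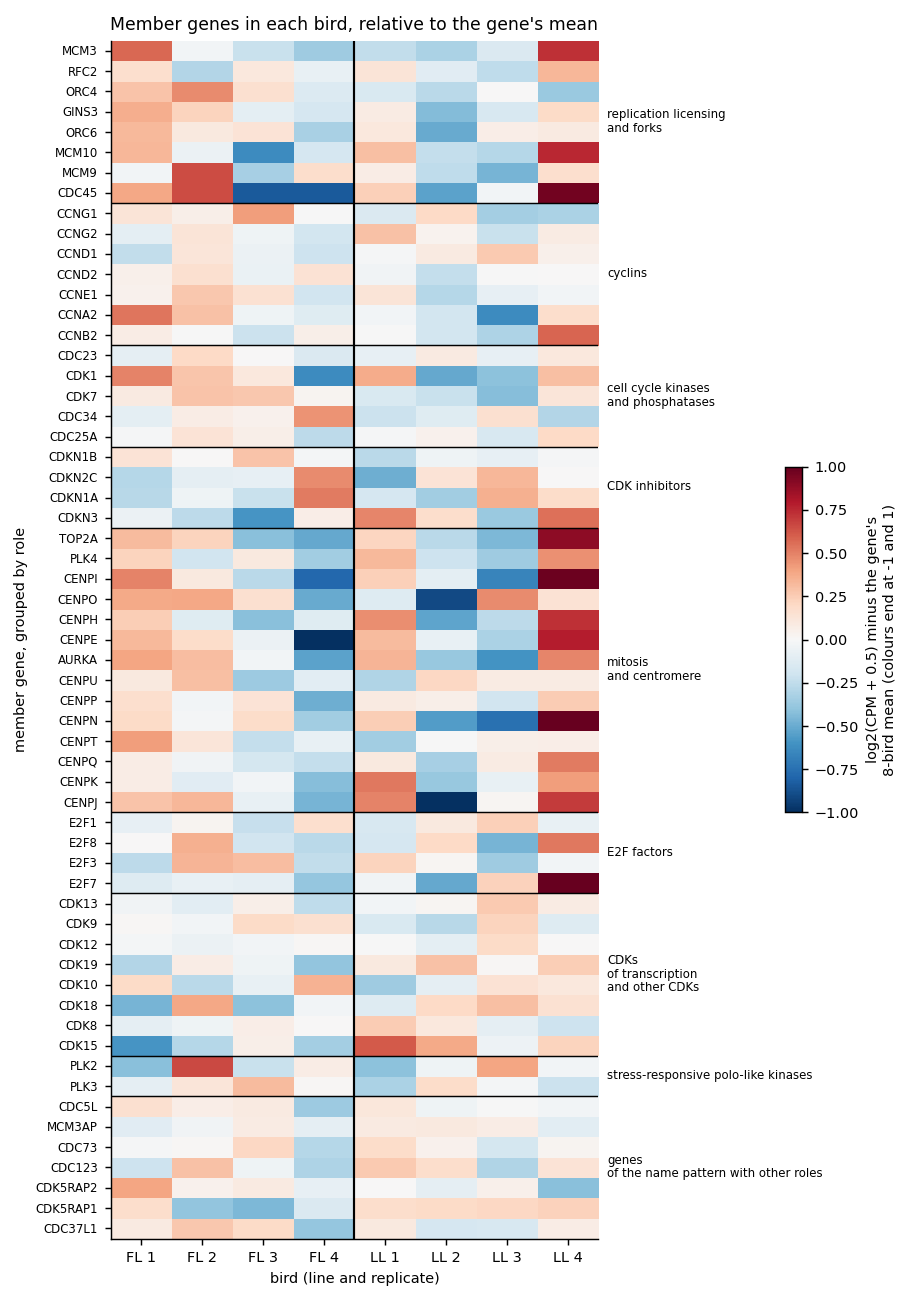
Level of each of the 59 tested members (rows, by role) in each bird (columns, FL left of LL), as log2(CPM + 0.5) minus the gene's mean over the 8 birds; red is above and blue below that mean. The column of LL replicate 4 is red through most of the mitosis rows, where it is the highest bird in 10 of 14, and that of FL replicate 4 is mostly blue.

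None of the 4 E2F factors was called between the lines (edgeR). E2F1, an activator of S phase genes, had 10.6, 11.4, 9.49 and 12.7 CPM in FL, against 9.97, 12.05, 13.3 and 10.6 CPM in LL. E2F8, a repressor, had 5.995, 7.78, 5.15 and 4.87 CPM in FL, against 5.27, 6.91, 4.19 and 8.84 CPM in LL. E2F7, its partner, had 1.31, 1.37, 1.36 and 1.01 CPM in FL, against 1.42, 0.886, 1.82 and 3.45 CPM in LL. LL replicate 4 was the highest bird for both repressors, and the log2 fold change of E2F7 was -0.62 ± 0.41 (SE). E2F3, an activator whose feature overlaps MBOAT1, had a log2 fold change of 0.09 ± 0.27 (SE).

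Among the 8 CDKs of transcription and other CDKs, which do not drive division, LL replicate 4 was the highest bird for none. CDK19, a kinase of the Mediator complex listed under an older name, had 26.8, 34.8, 32.0 and 24.9 CPM in FL replicates 1 to 4, against 35.3, 40.4, 33.2 and 39.2 CPM in LL replicates 1 to 4. Only LL replicate 3 lay within the FL range, and the log2 fold change was -0.33 ± 0.13 (SE), with an unadjusted p of 0.033 and an adjusted p of 0.319 (edgeR). CDK15, a kinase with no settled role in the cycle, had 1.199, 1.60, 2.17 and 1.52 CPM in FL, against 3.42, 2.83, 1.98 and 2.49 CPM in LL. Again LL replicate 3 alone overlapped the FL birds, with a log2 fold change of -0.71 ± 0.30 (SE), an unadjusted p of 0.038 and an adjusted p of 0.337 (edgeR). CDK8, the close relative of CDK19 in Mediator, had 7.96 to 8.95 CPM in FL and 7.32 to 10.3 CPM in LL, a log2 fold change of -0.04 ± 0.17 (SE). For CDK9, of elongation factor P-TEFb, the log2 fold change was 0.16 ± 0.13, for CDK12 -0.05 ± 0.10 and for CDK13, its paralog, -0.17 ± 0.11 (SE). CDK10 and CDK18 had log2 fold changes of 0.11 ± 0.18 and -0.26 ± 0.22 (SE).

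PLK2 and PLK3, polo-like kinases induced by stress and not needed for mitosis, had their own pattern. PLK2 was at 71.4, 151, 81.9 and 101 CPM in FL, against 71.9, 92.8, 126 and 94.0 CPM in LL. FL replicate 2 was its highest bird, and the log2 fold change was 0.07 ± 0.23 (SE). PLK3 had 19.3 to 25.8 CPM in FL and 16.4 to 23.4 CPM in LL.

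Most of the remaining members share only the name, while CDK5RAP2 acts at the centrosome. CDK5RAP1, which modifies mitochondrial transfer RNA, had the lowest p of the 59, with 26.5, 17.6, 17.0 and 21.1 CPM in FL replicates 1 to 4, against 26.5, 26.8, 26.95 and 27.5 CPM in LL replicates 1 to 4. FL replicate 1 matched the LL birds, the other FL birds were lower, and the LL birds lay close together. Its log2 fold change was -0.38 ± 0.15 (SE), with an unadjusted p of 0.027 and an adjusted p of 0.297 (edgeR). CDC5L, of the spliceosome, had 125, 117, 119 and 86.8 CPM in FL, against 121, 109, 111 and 110 CPM in LL. MCM3AP, of messenger RNA export, ranged from 87.7 to 101 CPM in FL and from 88.5 to 102 CPM in LL, the narrowest range of all members at 1.16-fold. CDC73, of the PAF1 complex, ranged from 41.3 to 58.0 CPM in FL and from 44.4 to 57.2 CPM in LL. CDC123, CDC37L1 and CDK5RAP2 had log2 fold changes of -0.14, 0.09 and 0.23.

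In the comparison of FL with LL, 0 of the 59 members were called at an adjusted p of at most 0.05 and at least 1.2-fold (edgeR quasi-likelihood test), beside 41 of 11187 genes, or 0.366%. DESeq2 called 0 members as well, beside 310 genes of the whole table, or 1.73%. At an unadjusted p under 0.05, 1 member was higher in FL (ORC4), beside 6.49% of all genes, and 3 were higher in LL (CDK5RAP1, CDK19 and CDK15), beside 6.62% of all genes. The 4 together are 6.78% of the members, beside 13.1% of all genes. No member had all FL birds above all LL birds (3.76% of all genes) or all LL birds above all FL birds (4.34% of all genes). The median log2 fold change was -0.04 over the members and 0.00 over all genes. By role, it was 0.04 for replication, 0.13 for cyclins, 0.13 for cycle kinases and phosphatases, -0.01 for CDK inhibitors, -0.07 for E2F factors and -0.11 for the other CDKs. For replication it was 0.26 without LL replicate 4, with 8 of 9 tested members above 0, against 4 of 8 with all birds, 0.19 without FL replicate 4, -0.09 without LL replicate 2 and -0.11 without LL replicate 3. For CDK inhibitors it was -0.25 without FL replicate 4, with 3 of 4 below 0, and ran up to 0.14, without LL replicate 3. With each bird left out in turn, the unadjusted p ran from 0.00945 to 0.106 for ORC4, 0.00264 to 0.0793 for CDK5RAP1, 0.0148 to 0.0895 for CDK19 and 0.0223 to 0.113 for CDK15, and it stayed under 0.05 in 2, 4, 4 and 2 of the 8 fits. Without FL replicate 4, which held the muscle markers, it was 0.00945 for ORC4, 0.0396 for CDK5RAP1, 0.0840 for CDK19 and 0.0773 for CDK15.

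The data bound the size of a difference for most members. For 48 of the 59, the 95% interval of the fold change lay wholly within 2-fold either way, and for 24 within 1.5-fold, beside 84.5% and 53.8% of all genes tested. The median half-width of the interval was 0.46 on the log2 scale for the members and 0.37 for all genes. The 4 widest were those of CENPJ, at -1.37 to 0.96, CDC45, at -1.39 to 0.68, CENPN, at -1.20 to 0.84, and CENPI, at -1.23 to 0.63 on the log2 scale. These intervals reach past 2-fold on the LL side, and their genes had means of 1.29 to 4.37 CPM and biological coefficients of variation, the spread between birds beyond counting error, of 37.4% to 43.2%. With their flanks, the features of 15 members overlap other features, and reads of such pairs may be mixed.

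**Figure D3:**
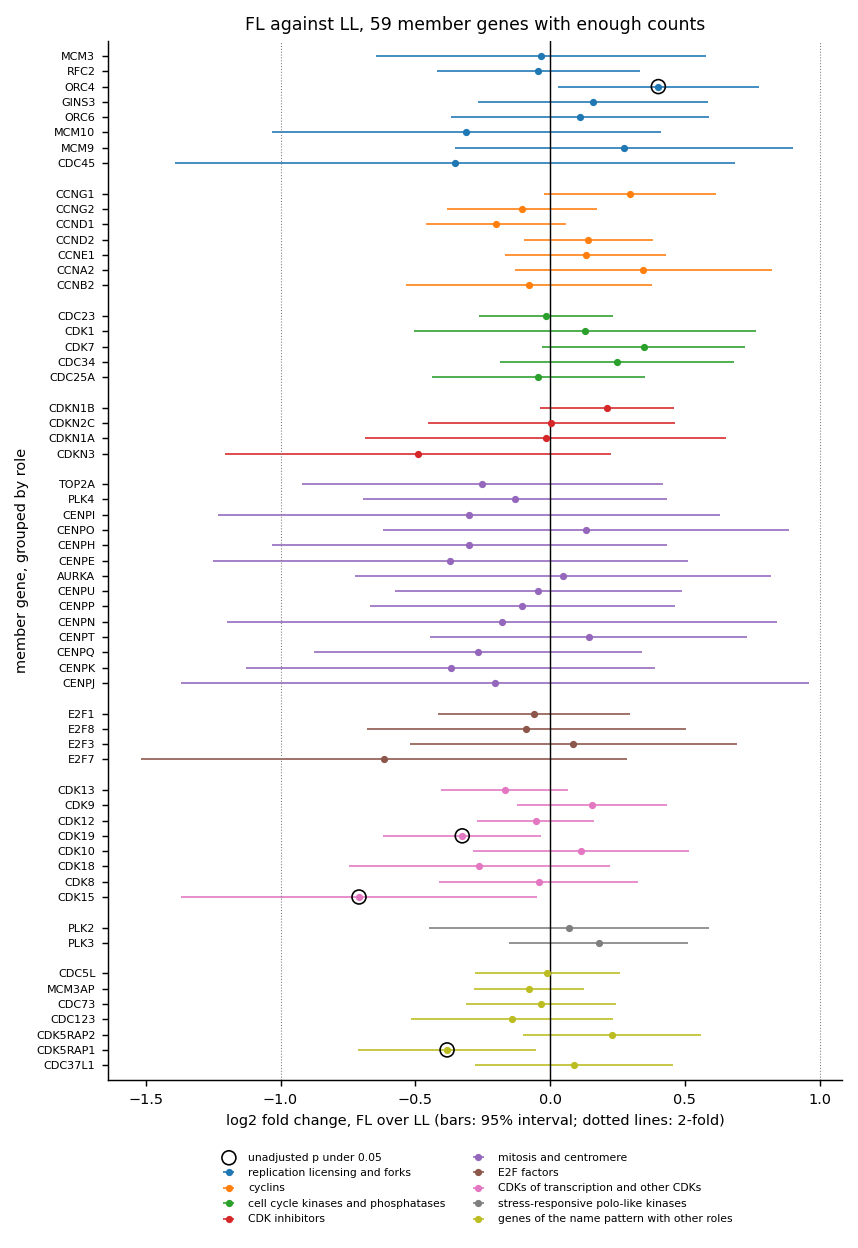
Log2 fold change FL over LL of each tested member (horizontal axis; bars, 95% intervals from edgeR; dotted lines, 2-fold), ordered by role from top to bottom. Intervals of 55 members include 0, and the 4 circled members (ORC4, CDK19, CDK15 and CDK5RAP1) have unadjusted p under 0.05.

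For the 13 mitosis members with a mean of 1 to 10 CPM, the biological coefficient of variation had a median of 29.97%, beside 24.4% over the 3146 genes tested in that range. The ratio of the highest to the lowest bird did not differ in this way, with medians of 2.39 for the 13 and 2.40 for those genes. Pooled with the replication, cyclin and kinase members in that range, 19 in all, the median coefficient of variation was 24.2%. Between 10 and 100 CPM the median coefficients were 17.5% over 14 such members and 16.0% over 6216 genes. Whether the mitosis members share their high and low birds more than other genes do was not tested.

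The birds with the highest and the lowest mitosis sum were the same in separate runs. By the published methods, first runs shared a lane with few other libraries, except for FL replicate 4 and LL replicate 3, which each had a lane alone. The other 2 runs of every bird came from lanes that held all 8 birds, called lanes of 8 here. In the lanes of 8, the mitosis sum was 93.6, 81.6, 60.8 and 56.0 CPM in FL replicates 1 to 4, against 84.7, 57.8, 61.4 and 122 CPM in LL replicates 1 to 4. In the first runs it was 88.2, 83.9, 66.5 and 51.3 CPM in FL, against 86.6, 63.2, 61.0 and 128 CPM in LL. FL replicate 4 was the lowest and LL replicate 4 the highest bird in both, while FL replicate 3, LL replicate 2 and LL replicate 3 changed places. Counts of single genes held less well. LL replicate 4 was the highest bird in 6 of the 14 mitosis members in the lanes of 8, against 10 in the first runs. FL replicate 4 was the lowest in 4 in the lanes of 8, against 8 in the first runs. For CCNB2, LL replicate 4 was the highest bird in the lanes of 8, at 23.6 CPM. In the first runs it was at 16.5 CPM, against 17.3 CPM in FL replicate 1, the highest. CCNA2 was highest in FL replicate 1 in both. For replication, FL replicates 3 and 4 changed places, at 82.3 and 66.3 CPM in the lanes of 8 and 72.4 and 76.8 CPM in the first runs. The highest replication sum changed bird too. FL replicate 1 was at 111 CPM in the lanes of 8, against 109 CPM in LL replicate 4. In the first runs LL replicate 4 was at 109 CPM, against 102 CPM in FL replicate 1. Runs of 1 bird repeat 1 library, so this checks the sequencing and not the tissue.

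**Figure D4:**
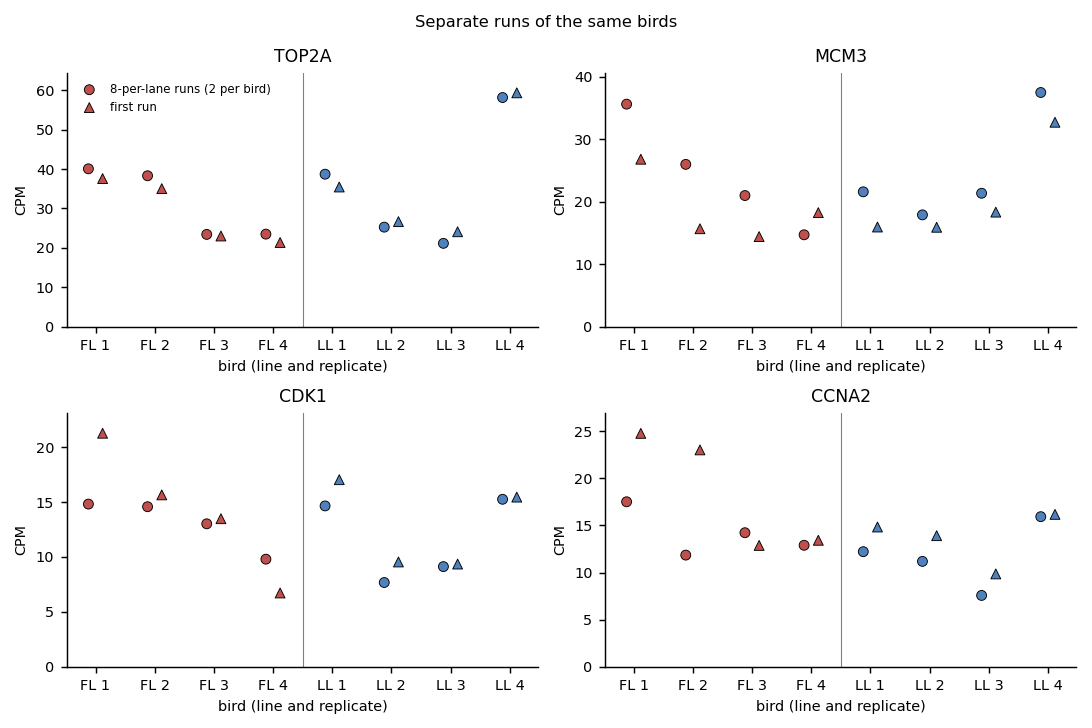
CPM (vertical axes, from 0) of TOP2A, MCM3, CDK1 and CCNA2 in each bird, FL left of LL, in the lanes of 8 (circles, 2 runs summed) and in the first run (triangles). TOP2A of LL replicate 4 is at 58.1 CPM in the lanes of 8 and 59.3 CPM in the first run, whereas CCNA2 of FL replicate 2 is at 11.9 and 23.0 CPM.

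Beyond the members, a list of 121 other proliferation genes was matched to 76 features with 72 names, of which 69 were tested, and 0 were called (edgeR). Of the 69, 53 had log2 fold changes below 0 and 16 above, beside 5541 below and 5646 above among all genes, and their median was -0.17. With each bird left out in turn, the median ran from -0.34 without FL replicate 1, with 61 below and 10 above, to -0.03 without LL replicate 4, with 39 below and 31 above. It was -0.31 without LL replicate 3, -0.29 without LL replicate 2 and -0.09 without FL replicate 4. LL replicate 4 was the highest bird in 39 of the 69 and FL replicate 4 the lowest in 33. In the lanes of 8 these counts were 31 and 18, and in the first runs 36 and 36. They were not made over all genes tested. MKI67 (Ki-67), the classical marker of cycling cells, had 11.1, 8.69, 4.61 and 3.95 CPM in FL replicates 1 to 4, against 7.55, 3.54, 5.14 and 12.01 CPM in LL replicates 1 to 4 in the larger of its 2 features. FL replicate 1 and LL replicate 4 were high here too, and its log2 fold change was -0.0040 ± 0.42 (SE).

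PCNA, the sliding clamp of replication, had 52.6, 44.6, 48.8 and 43.7 CPM in FL, against 55.7, 37.7, 34.8 and 55.8 CPM in LL. The nucleotide enzymes RRM1, RRM2 and TYMS had log2 fold changes of -0.08 ± 0.13, 0.11 ± 0.34 and -0.54 ± 0.34 (SE). The pocket proteins RB1 and RBL1, which bind E2F factors, had 0.01 ± 0.14 and -0.14 ± 0.12 (SE), and MYBL2, a factor of mitotic gene expression, had 0.17 ± 0.11 (SE). Among the 69, 4 had an unadjusted p under 0.05 and higher means in LL, or 5.80%, beside 6.62% of all genes. All LL birds lay above all FL birds for 3, or 4.35%, beside 4.34% of all genes. INCENP, a partner of Aurora B, had 18.9, 21.0, 21.4 and 25.95 CPM in FL, against 30.8, 33.3, 28.6 and 30.9 CPM in LL, with no overlap. Its log2 fold change was -0.50 ± 0.13 (SE), with an adjusted p of 0.141 (edgeR). BRCA2, of DNA repair, had 13.3, 15.1, 14.4 and 13.2 CPM in FL, against 15.9, 18.1, 22.1 and 22.8 CPM in LL, again apart, with an adjusted p of 0.18 (edgeR). STAG2, of cohesin, was the third, with a log2 fold change of -0.17 ± 0.10 (SE). SMC4, of condensin, and SPC25, of the kinetochore, had log2 fold changes of -0.38 and -0.93.

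Markers of other cells moved with the birds in part. LL replicate 4, high for mitosis, was the highest bird in 5 of the 6 leukocyte markers found of 13 listed, whose sums were 6827, 6533, 5947 and 6783 CPM in FL replicates 1 to 4, against 5896, 5298, 4870 and 7402 CPM in LL replicates 1 to 4. It was the highest in 5 in the lanes of 8, but in only 3 in the first runs. There the highest leukocyte sum was that of FL replicate 4, at 7243 CPM, against 6906 CPM in LL replicate 4. Of the 7 stromal markers, LL replicate 4 was the highest bird in 3 over all runs. In the lanes of 8 it was the highest in 5 of these, and in the first runs in 3. Over all runs it was the highest in no tested marker of the other lists. CD3E of T cells had 62.2, 40.7, 40.7 and 45.8 CPM in FL, against 51.8, 40.6, 31.0 and 74.2 CPM in LL, with LL replicate 4 and FL replicate 1 highest. CSF1R of macrophages went otherwise, at 623, 719, 643 and 659.9 CPM in FL, against 619, 588, 564 and 556 CPM in LL, with LL replicate 4 the lowest of the 8 birds. All FL birds lay above all LL birds for CSF1R, with an adjusted p of 0.441 (edgeR). MARCO, also of macrophages, ran opposite to CSF1R, at 6.43, 45.0, 3.66 and 3.65 CPM in FL, against 19.1, 35.4, 42.7 and 86.9 CPM in LL. LL replicate 4 was the highest bird for MARCO. Its log2 fold change was -1.77 ± 0.78 (SE), with an adjusted p of 0.364 (edgeR). For CD74, of antigen presentation, the highest birds were LL replicate 4 at 6365 CPM and FL replicate 4 at 5855 CPM, followed by FL replicate 1 at 5838 CPM. CD74 made up most of the leukocyte sums in every bird, so these sums largely follow that gene. FL replicate 4, low for mitosis and also for the members with other roles, held the skeletal muscle markers given above. The 4 mesothelial markers found of 6 listed summed to 7.63 to 15.9 CPM in FL and 9.68 to 57.0 CPM in LL. Adipocyte marker sums were 15408 to 22009 CPM in FL and 11182 to 19779 CPM in LL. At an unadjusted p under 0.05 (edgeR), 2 of 7 stromal, 2 of 6 mural and 3 of 4 mesothelial markers were higher in LL. So was 1 leukocyte marker, MARCO, beside 6.62% of all genes, while 1 mural and 3 skeletal muscle markers were higher in FL. These FL markers rest on FL replicate 4. The mural one, DES, was at 161 CPM in that bird, against 22.2 to 34.4 CPM in the other FL birds and 13.4 to 26.6 CPM in LL. No marker of any list was called. PDGFRA, a stromal marker, had 100, 159, 133 and 140 CPM in FL, against 217, 201, 184 and 226 CPM in LL, without overlap. Its log2 fold change was -0.64 ± 0.14 (SE), with an adjusted p of 0.106 (edgeR). RGS5, a mural marker, also had all LL birds above all FL birds, with an adjusted p of 0.189 (edgeR). The part of these markers in the values of the members was not tested.

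The other 7 members did not pass the filter on low counts. CDK3, a kinase of exit from rest, had 1, 1, 2 and 2 counts in FL replicates 1 to 4, against 0, 0, 2 and 0 counts in LL replicates 1 to 4. CDC7, the kinase that fires origins, had 17, 10, 6 and 9 counts in FL, against 9, 6, 14 and 16 counts in LL. GINS1 and CCNA1, a cyclin of the germ line in mammals, had at most 5 and 6 counts in any bird. CENPM had at most 7, CENPR at most 15 and CDK5RAP3 at most 16 counts. In the fit without that filter, none of the 7 was called, beside 27 of 15286 genes. The unadjusted p of the 7 ran from 0.138 for CDK3 to 0.966 for CDC7 (edgeR).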

How the data were processed

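RNA of abdominal fat from 4 FL and 4 LL cockerels was sequenced in 24 runs. The deposited counts are unique exon reads per gene, which the authors obtained with CLC Genomics Workbench 5.1 on genome build 2.1 with Ensembl release 64 and 200 bases of flank on each gene, without reads that map to several places. The table's 24 normalized run columns and the authors' means, fold changes and p-values were not used.

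Counts of the 3 runs of a bird were summed. Lines were compared with edgeR 4.0.16 in R 4.3.3 (filterByExpr, TMM, quasi-likelihood F test), and p-values were adjusted by the Benjamini-Hochberg method for the 11187 genes that passed the filter. A call needed an adjusted p of at most 0.05 and a 1.2-fold difference. Birds are separate animals. The labels' free descriptions call the LL samples fat line, against their titles and stated line, which were used. The script was tested on simulated data. Totals were 4299772 to 12876999 counts per bird, and the 95% intervals cover counting error and the spread between birds.

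Members and lists were chosen with earlier results of these data known. Named were members with an unadjusted p under 0.05, with birds of the lines apart, with the 3 highest mean CPM of a role, with the largest gap of 1 bird, or at most 3 counts in every bird. Other members, CD3E, CSF1R, MARCO, CD74, PDGFRA, DES and RGS5 were named after their values were seen. Alternatives were DESeq2 1.42.0, scaling to total counts, other filters, separate runs, the replicate block and birds left out. Marker lists of 8 other cell types or tissue parts were read as sums. Marker sums of endothelial cells were 3596 to 4133 CPM in FL and 3527 to 4530 CPM in LL, of stromal cells 42443 to 67091 CPM in FL and 55246 to 73977 CPM in LL, of mural cells 1436 to 1846 CPM in FL and 1727 to 2164 CPM in LL, and of erythroid cells 394 to 893 CPM in FL and 293 to 705 CPM in LL. No sequence is shown, since no sequence table was used here, and promoter motifs were not analysed. RefSeq names came from a table of another assembly (GRCg7b), used for names and for the chromosome of a gene.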

Additional observations from a re-analysis of the deposited data

Results flagged for a closer look

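Single birds lay far from the other 3 of their line, by Dixon's ratio, in 3 of 118 groups of 4 birds among the tested members. Chance alone would mark about 1 group in 20. MCM3 was at 35.6 CPM in LL replicate 4, against 17.0 to 19.2 CPM in the other LL birds. ORC6 was at 4.96 CPM in LL replicate 2, against 7.59 to 7.83 CPM. MCM3AP was at 88.5 CPM in LL replicate 4, against 99.98 to 102 CPM. Sums of each role group, of pooled members, of the other proliferation genes and of each marker list were compared as well. FL replicate 4 stood apart in 3 of these sums. The replication, cyclin, kinase and mitosis members together summed to 561 CPM in that bird, against 667 to 677 CPM in the other FL birds. CCNG1 weighed most in this sum, at 217, 206, 265 and 197 CPM in FL replicates 1 to 4. The closeness of the other FL birds thus rests in part on CCNG1, and the ratio was not taken without it. The members with other roles summed to 297 CPM, against 359 to 368 CPM. Its skeletal muscle markers summed to 15766 CPM, against 84.4 to 91.8 CPM.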

How the results depend on the processing

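No member was called under any alternative run. Several alternatives called few genes at all, namely 1 of 10243 in first runs and 2 to 65 with 1 bird left out. DESeq2 called 310 of 17934 genes, and the lanes of 8 alone 133 of 10515. ORC4, CDK19 and CDK5RAP1 kept their directions in every alternative, and CDK15 in those that tested it, which leaves out the separate runs and the filter of 10 counts in every bird. The number of members at an unadjusted p under 0.05 and higher in FL (1) was 2 with DESeq2, 0 with scaling to total counts and 0 in first runs, and 0 to 2 with 1 bird left out. The number higher in LL (3) was 1 in first runs and 0 to 4 with 1 bird left out. Both directions together made up 6.06% of the members with DESeq2, 5.08% with scaling to total counts and 2% in first runs. With 1 bird left out they made up 1.64% to 10%. Of all genes, the shares at this p were 8.77%, 13.1% and 8.30%, and 10.5% to 14.6% with 1 bird left out. Members whose lines did not overlap numbered, with FL above, 1 under DESeq2, 1 without a filter, 1 with at least 10 counts in every bird, 3 in first runs and 0 to 4 with 1 bird left out, and with LL above 1 under scaling to total counts and 0 to 4 with 1 bird left out. Without FL replicate 4 and LL replicate 3, an alternative chosen after seeing the data, these numbered 6 and 4. Of all genes tested, the same share was 2.77% under DESeq2, 3.09% without a filter, 3.98% with at least 10 counts, 2.67% in first runs and 5.06% to 6.95% with 1 bird left out for FL above. For LL above it was 5.89% under scaling to total counts and 5.38% to 6.95% with 1 bird left out, and without both birds of the single lanes it was 9.35% for FL above and 9.47% for LL above.

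Several log2 fold changes changed sign. With 1 bird left out they ran from -0.28 to 0.28 for MCM3, -0.14 to 0.074 for RFC2, -0.011 to 0.24 for ORC6, -0.088 to 0.029 for CDC23, -0.040 to 0.33 for CDK1, -0.19 to 0.13 for CDKN2C, -0.30 to 0.15 for CDKN1A, -0.43 to 0.092 for TOP2A, -0.28 to 0.029 for PLK4, -0.60 to 0.12 for CENPI, -0.14 to 0.024 for E2F1, -0.26 to 0.13 for E2F8, -0.045 to 0.20 for E2F3, -0.090 to 0.0081 for CDK12, -0.18 to 0.23 for PLK2, -0.064 to 0.095 for CDC5L and -0.11 to 0.049 for CDC73. In first runs ORC6 was at -0.093, CDKN2C at -0.075 and E2F3 at -0.12. In the lanes of 8, CDC23 was at 0.051, CDC5L at 0.0024 and CDC73 at 0.077. Scaling to total counts put CDKN2C at -0.058 and moved the median of all genes to -0.055. Without both birds of the single lanes, MCM3 was at 0.011, CDKN2C at -0.065 and CDC5L at 0.086. The cause was not tested.

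The replicate numbers were not taken to pair the birds. Same-numbered deviations correlated at 0.23, -0.06, -0.11 and -0.06, and those of the other pairs at -0.35 to 0.31. So few birds cannot settle whether the numbers pair them. With the replicate number as a block, 0 members were called, beside 8 of 11187 genes. At an unadjusted p under 0.05, 1 member was higher in FL and 2 in LL, or 5.08% of the members, beside 11.9% of all genes. The members' median log2 fold change was -0.04, against -0.04 without the block. Whether depth or the spread between birds set the widest intervals was not tested.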
